A study of Homo sapiens with 8 samples.

Results

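The genes described here are 10 hypoxia response genes, picked by symbol from the 19414 genes of the deposited tables. They are the alpha subunits HIF1A and EPAS1, the prolyl hydroxylases EGLN1 and EGLN3, and the targets ADM, CA9, BNIP3, NDRG1, ANKRD37 and KDM3A, none of which encodes a glycolytic enzyme. Total RNA was sequenced from U2OS, an established human osteosarcoma line, in 8 libraries that form 4 genotypes of 2 libraries each. In the Zab+MYC group the cells carried Zab and overexpressed MYC. The MYC group overexpressed MYC alone, the Zab group carried Zab alone, and the WT group carried neither. Zab is written Zαβ in the series' design, the usual name for the part of ADAR1, an editing enzyme, that binds left-handed nucleic acids. The labels do not describe the construct, the promoter, the clones or the oxygen level of the cultures, and no group is labelled as hypoxic. All values are therefore for whatever oxygen the cultures had.

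Hypoxia-inducible factor (HIF) is a dimer of an oxygen-regulated alpha subunit and the stable beta subunit ARNT. When oxygen is present, prolyl hydroxylases modify the alpha subunit, the VHL ubiquitin ligase binds it and the proteasome degrades it, so HIF is controlled mainly at the protein level and mRNA of the alpha subunits need not follow its activity. When oxygen falls, the dimer binds the core letters ACGTG or GCGTG near its target genes, and some of those targets, EGLN3 and EGLN1 among them, feed back on HIF. MYC, with its partner MAX, binds the E-box CACGTG, which contains the hypoxia core ACGTG.

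The letters that HIF and MYC can share are shown in the 250 bases upstream of the annotated start of 4 members, from RefSeq promoters of build GRCh38.p14, read 5′ to 3′ along the gene. The windows lie at chr10:131981924-131982173 on the minus strand for BNIP3, at chr4:185396591-185396840 on the plus strand for ANKRD37, at chr1:231422288-231422537 on the minus strand for EGLN1 and at chr9:35673678-35673927 on the plus strand for CA9. These are the 4 members whose window holds ACGTG. Capitals mark ACGTG or GCGTG on either strand (CACGT or CACGC when read on the other), and a run of CACGTG is an E-box that counts as ACGTG on both strands.
BNIP3: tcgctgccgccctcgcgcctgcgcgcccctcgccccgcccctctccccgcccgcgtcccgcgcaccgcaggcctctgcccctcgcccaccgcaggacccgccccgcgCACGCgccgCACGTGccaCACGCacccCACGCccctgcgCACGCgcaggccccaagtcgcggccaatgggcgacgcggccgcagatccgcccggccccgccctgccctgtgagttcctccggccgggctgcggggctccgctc
ANKRD37: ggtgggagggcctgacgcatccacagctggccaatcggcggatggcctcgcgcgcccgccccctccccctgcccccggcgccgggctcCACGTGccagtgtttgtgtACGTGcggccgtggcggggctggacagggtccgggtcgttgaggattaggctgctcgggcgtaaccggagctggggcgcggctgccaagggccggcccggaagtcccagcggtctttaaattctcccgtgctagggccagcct
EGLN1: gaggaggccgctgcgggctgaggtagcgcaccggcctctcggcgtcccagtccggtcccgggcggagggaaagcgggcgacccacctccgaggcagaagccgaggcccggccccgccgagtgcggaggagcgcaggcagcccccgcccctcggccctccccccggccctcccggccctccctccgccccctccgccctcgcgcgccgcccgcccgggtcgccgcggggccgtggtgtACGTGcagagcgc
CA9: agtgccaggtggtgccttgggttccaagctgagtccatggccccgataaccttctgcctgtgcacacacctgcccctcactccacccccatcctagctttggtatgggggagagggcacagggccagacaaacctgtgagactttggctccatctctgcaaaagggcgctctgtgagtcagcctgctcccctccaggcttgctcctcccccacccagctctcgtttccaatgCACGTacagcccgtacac
BNIP3 has an E-box at -134 to -129, where the base just before the start is -1, with 4 GCGTG cores around it. ANKRD37 has an E-box at -162 to -157 and a separate ACGTG at -143 to -139. EGLN1 has ACGTG at -13 to -9, and CA9 has it on the other strand at -18 to -14. Promoters of 9 of the 10 members were in the table, and NDRG1 was not among them. Either core was in a window of 8 members, ACGTG in 4 and CACGTG in 2 (BNIP3 and ANKRD37). Among all 35116 windows of the same length, 43.2% held either core, 18.5% held ACGTG and 6.34% held CACGTG. HIF1A, EPAS1, KDM3A and ADM had GCGTG alone, and EGLN3 had neither core. A match describes letters in this window and is not a binding site.

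Facts of the libraries bear on how firmly the values can be read. Exon tags ran from 686992 to 1326170 per library, so 1 tag is about 1 count per 1e6 tags (CPM) and the low members are measured poorly. The 2 libraries of a group differed by little more than sampling noise when 1 tag was taken as 2 steps of the deposited values. The chi-square per degree of freedom then lay between 0.9966 in Zab+MYC and 1.025 in WT. Whether the libraries of a group were separate cultures is not labelled, and the spread behind each p-value may be technical. MYC ran from 705 to 707 CPM in Zab+MYC, 1237 to 1290 CPM in MYC, 194 to 230 CPM in Zab and 72.6 to 94.8 CPM in WT. ADAR ran from 1019 to 1068 CPM in Zab+MYC, 230 to 247 CPM in MYC, 6003 to 6198 CPM in Zab and 264 to 270 CPM in WT, and introduced and endogenous transcripts are not separated in either gene. Of 8 mesenchymal and osteoblast markers all had tags, although COL1A2 had 1 tag in all. Of 15 markers of other cell types CD3E and ALB were at 0, and the whole list summed to 14.9 to 36.9 CPM. Changes below are relative to TMM scaling. On the deposited scale all log2 fold changes shift by a median of -0.52 for Zab against WT, -0.31 for Zab+MYC against MYC and 0.15 for Zab+MYC against Zab.

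NDRG1, a stress-induced cytoplasmic protein known as a HIF target and as a gene repressed by MYC, was the member that differed most among the genotypes. It was lower in MYC and in Zab cells than in WT cells, and higher in Zab+MYC than in MYC cells. HIF1A was lower and BNIP3 was higher in MYC than in WT cells. These HIF1A and BNIP3 calls, and the NDRG1 call in Zab+MYC against MYC, each ended with DESeq2 and without 1 or another single library. Fold changes come from log2(CPM + 2), so those of low genes are understated, and a call is a limma adjusted p below 0.05. Of the 10 members, 6 passed the filter on low values and were tested. In MYC against WT, 3 of the 6 were called, where 58.2% of all tested genes were. Of these 3, 1 was higher (27.8% of all tested genes) and 2 were lower (30.4%). The Zab against WT comparison had 1 member called (24.4% of all tested genes), which was lower (11.3%), and none higher (13.1%). Setting Zab+MYC against MYC, 1 was called (20% of all tested genes), which was higher (11.8%), and none was lower (8.14%). Between Zab+MYC and Zab cells none was called, where 26.8% of all tested genes were, 14.3% higher and 12.5% lower. That limma count of 0 was also 0 at an unadjusted p below 0.05, and 0 with edgeR and with DESeq2. For the interaction, which is the Zab effect with MYC (Zab+MYC minus MYC) minus the Zab effect without it (Zab minus WT), 1 member was called (27.9% of all tested genes), which was higher (14.6%), and none was lower (13.3%). For the zeros in 1 direction, limma at an unadjusted p below 0.05, edgeR and DESeq2 also gave 0. Shares this close to or below the background do not set the members apart from other genes.

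**Figure D1:**
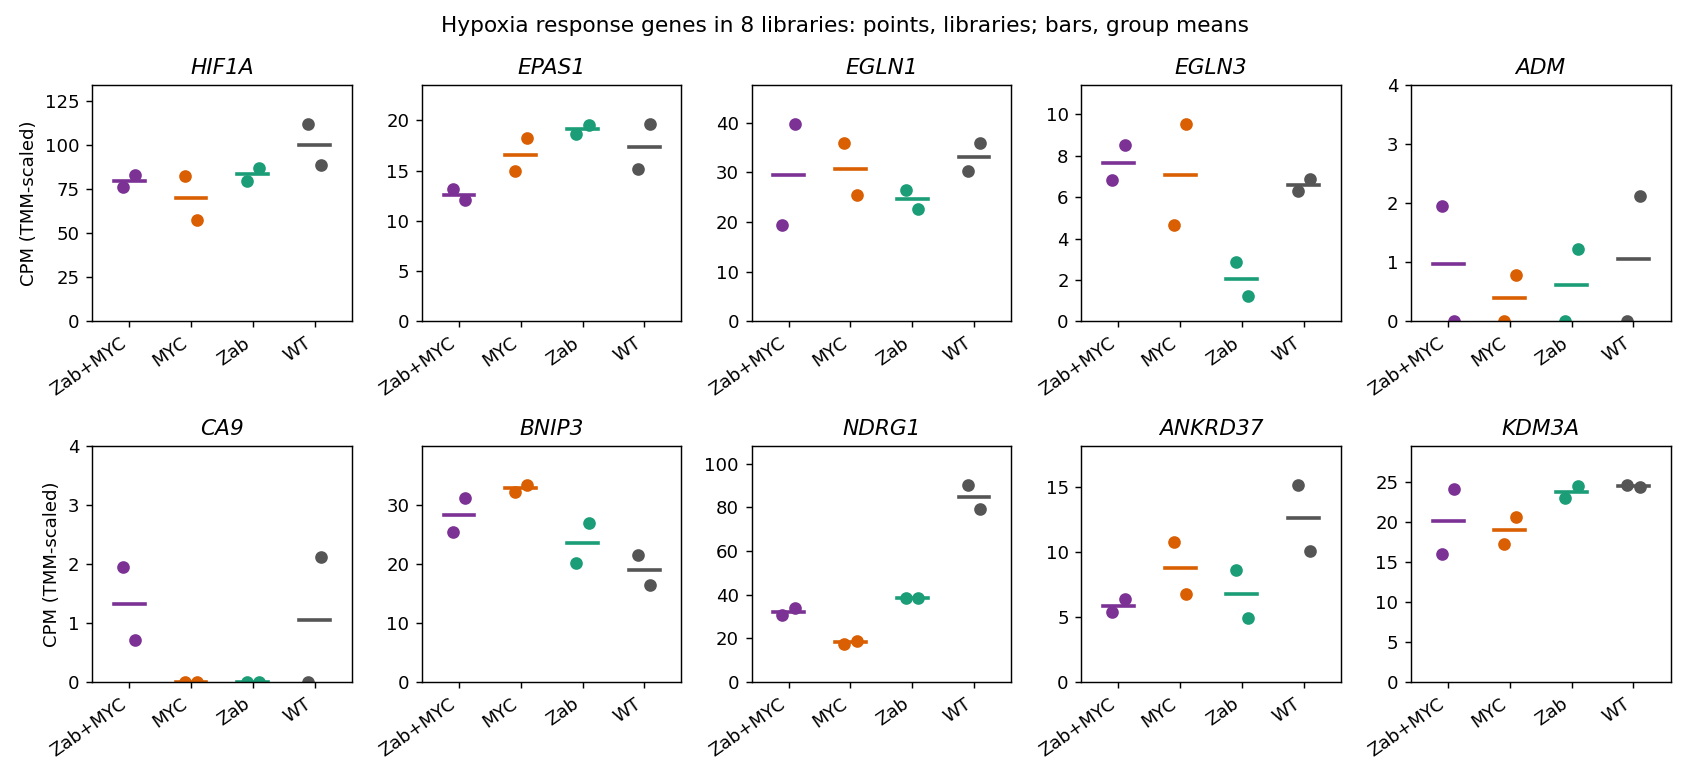
CPM (TMM-scaled) of each hypoxia response gene on the y axis in the 4 genotypes on the x axis, with 1 point per library and a bar at the mean of 2 libraries. NDRG1 sits between 79.5 and 90.2 CPM in WT and below 39 CPM in the other libraries, while ADM and CA9 stay near 0 in all 8.

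The levels of the members spanned a wide range. Per kilobase of exon (CPM per kb), WT cells had 27.1 ± 5.22 for NDRG1 and 25.5 ± 4.19 for HIF1A (SD, n = 2 here and below). ANKRD37 stood at 16.3 ± 4.66 and BNIP3 at 11.7 ± 2.19 CPM per kb. KDM3A stood at 5.30 ± 0.036, EGLN1 at 4.68 ± 0.573, EPAS1 at 3.39 ± 0.615 and EGLN3 at 2.45 ± 0.152 CPM per kb. ADM and CA9 were last, at 0.713 ± 1.01 and 0.696 ± 0.984 CPM per kb. Of the neighbours in this order, NDRG1 and HIF1A, ANKRD37 and BNIP3, and ADM and CA9 do not differ beyond their spread. An SD of 2 libraries can be smaller than counting error, as for KDM3A with 42.5 tags in WT. The order among KDM3A, EGLN1, EPAS1 and EGLN3 is therefore not settled either. In MYC cells NDRG1 fell to 6.08 ± 0.246 CPM per kb, below BNIP3 at 20.2 ± 0.473, HIF1A at 17.8 ± 4.46 and ANKRD37 at 11.3 ± 3.67 CPM per kb.

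HIF1A, at chromosome 14 from 62162231 to 62214976 (hg19), encodes the alpha subunit found in most cell types. HIF1A had 76.4 and 82.9 CPM in Zab+MYC libraries, 82.2 and 57.5 CPM in MYC, 79.6 and 86.9 CPM in Zab, and 112 and 88.5 CPM in WT. All 6 libraries of the other groups lay below both WT libraries, and the MYC libraries differed widely between themselves. HIF1A was 1.43-fold lower in MYC than WT cells (log2 -0.52 ± 0.17 SE, limma adjusted p = 0.00703). That call ended with DESeq2 (adjusted p = 0.11), without MYC replicate 2 (log2 -0.23, limma adjusted p = 0.38) and without WT replicate 1 (log2 -0.34, limma adjusted p = 0.18). The tags of both libraries together gave a MYC to WT ratio of 0.695, with a 95% counting interval of 0.557 to 0.867. In Zab against WT the log2 difference was -0.25, with a 95% interval of -0.59 to 0.09, and was not called. On the deposited scale that value was -0.78 and was called (limma adjusted p = 8.8e-05), where the scale itself shifts the median gene by -0.52. The RefSeq annotation of GRCh38 places the antisense RNAs HIF1A-AS1, HIF1A-AS2 and HIF1A-AS3 over the gene, and use of strand in the counting is not stated in the labels or headers. In bulk RNA, fewer cells with a transcript and less of it per cell cannot be told apart.

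EPAS1, at chromosome 2 from 46524546 to 46613836, encodes HIF-2 alpha, the subunit known for its role in kidney and endothelial cells. EPAS1 had 13.1 and 12.05 CPM in Zab+MYC, 14.9 and 18.2 CPM in MYC, 18.6 and 19.6 CPM in Zab, and 15.1 and 19.6 CPM in WT. The Zab+MYC libraries were the lowest of the 8, and WT overlapped both MYC and Zab. None of its 4 comparisons was called, and the widest, Zab+MYC against Zab, gave log2 -0.53 with a 95% interval of -1.20 to 0.13. HIF1A was the more abundant alpha subunit per kilobase in every library, by a factor that ran from 4.12 to 9.65. The 2 ends of that range were MYC replicate 2 and WT replicate 1, the libraries on which the HIF1A call also rested.

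The prolyl hydroxylases set the oxygen sensitivity of HIF, and EGLN1 (PHD2) is the main one in most cells. EGLN1, at chromosome 1 from 231499497 to 231560790, had 19.5 and 39.7 CPM in Zab+MYC, 36.0 and 25.4 CPM in MYC, 26.5 and 22.6 CPM in Zab, and 30.3 and 36.0 CPM in WT. The Zab+MYC libraries held both the lowest and the highest value of the 8. No comparison was called, with log2 differences between -0.40 for Zab against WT (95% interval -0.96 to 0.16) and 0.17 for Zab+MYC against Zab (-0.39 to 0.73). With the deposited scale EGLN1 was called lower in Zab than in WT cells (log2 -0.91, limma adjusted p = 0.0051).

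EGLN3 (PHD3), a strongly HIF-induced hydroxylase at chromosome 14 from 34393433 to 34420280, was scarce and did not pass the filter. EGLN3 had 7 and 6 tags (6.81 and 8.51 CPM) in Zab+MYC, 5 and 12 tags (4.67 and 9.52 CPM) in MYC, 2 and 1 tags (2.87 and 1.22 CPM) in Zab, and 5 and 6.5 tags (6.31 and 6.89 CPM) in WT. The Zab libraries were the lowest of the 8. Zab cells had a pooled level of 1.98 CPM, with a 95% counting interval of 0.409 to 5.79 CPM, against 6.62 CPM in WT (3.37 to 11.7). The Zab to WT ratio was 0.299, with a counting interval of 0.0539 to 1.12, which includes no difference. With a filter of 5 CPM in 2 libraries, EGLN3 entered the fit and was called higher in Zab+MYC than in Zab (log2 1.29, limma adjusted p = 0.0371). No Zab library reached 5 CPM, so it passed that filter through the other groups. With no filter the same difference was not called (log2 1.29, limma adjusted p = 0.081). In Zab against WT it was not called with the 5 CPM filter (log2 -1.11, adjusted p = 0.0842 by limma) or with no filter (log2 -1.10, limma adjusted p = 0.15). The Zab side of both rests on 3 tags, and the tag ratio of Zab+MYC to Zab was 3.79 with a counting interval of 1.04 to 20.7. A transcript of 2697 bases was kept for some libraries and one of 2415 bases for others. EGLN2 (PHD1), the third hydroxylase, is on the list of HIF control genes below and stood at 39.6 to 80.8 CPM per kb, so that EGLN1 was 0.0481 to 0.128 of it per kilobase. EGLN2 had 172 and 159 CPM in MYC, against 95.9 and 82.6 CPM in WT. It was 1.84-fold higher in MYC than WT cells (log2 0.88 ± 0.14 SE, limma adjusted p = 1.1e-07), a call that held in every alternative run.

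ADM, a secreted vasodilator peptide, and CA9, a membrane carbonic anhydrase used as a tissue marker of hypoxia, are usually among the most inducible HIF targets. Neither was detectable much above single tags here. ADM, at chromosome 11 from 10326620 to 10328944, had 2 and 0 tags in Zab+MYC, 0 and 1 tag in MYC, 0 and 1 tag in Zab, and 0 and 2 tags in WT. CA9, at chromosome 9 from 35673925 to 35681154, had 2 and 0.5 tags in Zab+MYC, 0 and 0 tags in MYC, 0 and 0 tags in Zab, and 0 and 2 tags in WT. Fractions of a tag appear because a tag was taken as 2 steps of the deposited values. A count of 0 over both libraries allows up to 1.29 CPM in MYC and up to 1.98 CPM in Zab, taking 3 counts over the group. At this depth no difference between genotypes was detectable for either gene.

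BNIP3, a mitochondrial outer-membrane protein that promotes mitophagy, lies at chromosome 10 from 133781187 to 133795517. BNIP3 had 25.3 and 31.2 CPM in Zab+MYC, 32.2 and 33.3 CPM in MYC, 20.1 and 26.9 CPM in Zab, and 21.5 and 16.4 CPM in WT. Both MYC libraries lay above every Zab and WT library, and the Zab+MYC libraries lay above both WT libraries. BNIP3 was 1.67-fold higher in MYC than WT cells (log2 0.74 ± 0.28 SE, limma adjusted p = 0.0212). The call ended with library totals (log2 0.62, limma adjusted p = 0.053) and with DESeq2 (log2 0.80, adjusted p = 0.15). It also ended without MYC replicate 1 (log2 0.81, limma adjusted p = 0.059), without MYC replicate 2 (log2 0.76, limma adjusted p = 0.079) and without WT replicate 2 (log2 0.57, limma adjusted p = 0.15). The pooled tags gave a MYC to WT ratio of 1.75 with a counting interval of 1.15 to 2.73. The other 3 comparisons were not called, with log2 differences of 0.28 for Zab against WT, -0.21 for Zab+MYC against MYC and 0.25 for Zab+MYC against Zab. PPP2R2D overlaps the span of BNIP3 in the GRCh38 annotation, but no coding gene overlaps BNIP3 in the hg19 table that was counted. Whether any reads are shared between them is not shown. PPP2R2D itself had 62.8 and 57.4 CPM in Zab+MYC, 64.9 and 73.8 CPM in MYC, 64.6 and 83.8 CPM in Zab, and 68.8 and 46.6 CPM in WT, and its part in the result was not tested.

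BNIP3L, the paralog of BNIP3 and also a mitophagy receptor, moved the other way. It is named with its values because they were seen to differ from those of BNIP3. BNIP3L had 31.6 and 27.6 CPM in Zab+MYC, 22.9 and 16.3 CPM in MYC, 37.3 and 40.4 CPM in Zab, and 126 and 87.4 CPM in WT. It was 5.02-fold lower in MYC than WT cells (log2 -2.33 ± 0.24 SE, adjusted p = 1.0e-13 by limma), and it was 2.62-fold lower in Zab than WT cells (log2 -1.39 ± 0.24, limma adjusted p = 2.9e-06). Per kilobase, BNIP3 stood at 1.66 and 2.39 times BNIP3L in Zab+MYC, 2.92 and 4.26 times in MYC, 1.14 and 1.41 times in Zab, and 0.353 and 0.399 times in WT. BNIP3 was thus the lower of the pair in both WT libraries and the higher in the other 6.

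NDRG1, at chromosome 8 from 134249418 to 134309495, had 30.7 and 34.0 CPM in Zab+MYC libraries, 17.3 and 19.0 CPM in MYC, 38.7 and 38.6 CPM in Zab, and 90.2 and 79.5 CPM in WT. No group overlapped another, and the order from low to high was MYC, Zab+MYC, Zab and WT. NDRG1 was 4.30-fold lower in MYC than WT cells (log2 -2.11 ± 0.24 SE, limma adjusted p = 3.47e-12), and the pooled tag ratio was 0.216 with a counting interval of 0.150 to 0.306. It was 2.13-fold lower in Zab than WT cells (log2 -1.09 ± 0.24, limma adjusted p = 0.000202), with a tag ratio of 0.458 and an interval of 0.332 to 0.624. Both calls held in every alternative run, where log2 ran from -2.23 to -1.95 for MYC against WT and from -1.61 to -0.99 for Zab against WT.

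With MYC present the direction of the Zab difference was the opposite one. NDRG1 was 1.70-fold higher in Zab+MYC than MYC cells (log2 0.77 ± 0.24 SE, limma adjusted p = 0.0131), and the tag ratio was 1.76 with an interval of 1.16 to 2.68. This call ended on the deposited scale (log2 0.46, limma adjusted p = 0.12) and with DESeq2 (log2 0.81, adjusted p = 0.17). It ended also without Zab+MYC replicate 2 (log2 0.66, limma adjusted p = 0.12), without MYC replicate 1 (log2 0.67, limma adjusted p = 0.12) and without MYC replicate 2 (log2 0.80, limma adjusted p = 0.052). Zab+MYC and Zab cells differed by log2 -0.24, with a 95% interval of -0.71 to 0.23, and were not called. The difference between the Zab effects with and without MYC was log2 1.86 ± 0.33 (limma adjusted p = 7.49e-06), and it was called in every alternative run. These comparisons share libraries, since MYC and Zab are both set against the same WT libraries. The groups were also not matched in level. MYC ran from 705 to 707 CPM in Zab+MYC against 1237 to 1290 CPM in MYC. ADAR ran from 1019 to 1068 CPM in Zab+MYC against 6003 to 6198 CPM in Zab. These levels change together with the genotypes, so their parts in the difference cannot be told apart.

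Some features of the libraries moved along with NDRG1 or in the reverse order. The summed level of the 8 mesenchymal and osteoblast markers was 8060 to 8150 CPM in Zab+MYC, 5585 to 5761 CPM in MYC, 9144 to 9484 CPM in Zab and 10816 to 11020 CPM in WT. That sum has the same order of groups. Singly, COL1A1, SPARC and FN1 kept this order, VIM, CD44, RUNX2 and S100A6 did not, and COL1A2 had 1 tag in all. VIM, the largest part of the sum, averaged 6789 CPM in Zab+MYC and 6577 CPM in Zab. CD44 was lowest in WT, at 77.7 CPM. MYC itself ran in the reverse order, from 72.6 to 94.8 CPM in WT and 194 to 230 CPM in Zab. It ran from 705 to 707 CPM in Zab+MYC and 1237 to 1290 CPM in MYC. The part of these markers and of the MYC level in the result was not tested. The deposited tables kept 4 different NDRG1 transcripts, of 2915 to 3391 bases, over the 8 libraries. With tags corrected for that length, NDRG1 gave log2 -2.04 for MYC against WT, -1.09 for Zab against WT and 0.70 for Zab+MYC against MYC, all called. NDRG3, a paralog named after its values were seen, had 104 and 128 CPM in Zab+MYC, 73.8 and 65.4 CPM in MYC, 86.1 and 113 CPM in Zab, and 118 and 139 CPM in WT. NDRG3 was 1.82-fold lower in MYC than WT cells (log2 -0.86 ± 0.15, limma adjusted p = 1.9e-06).

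**Figure D2:**
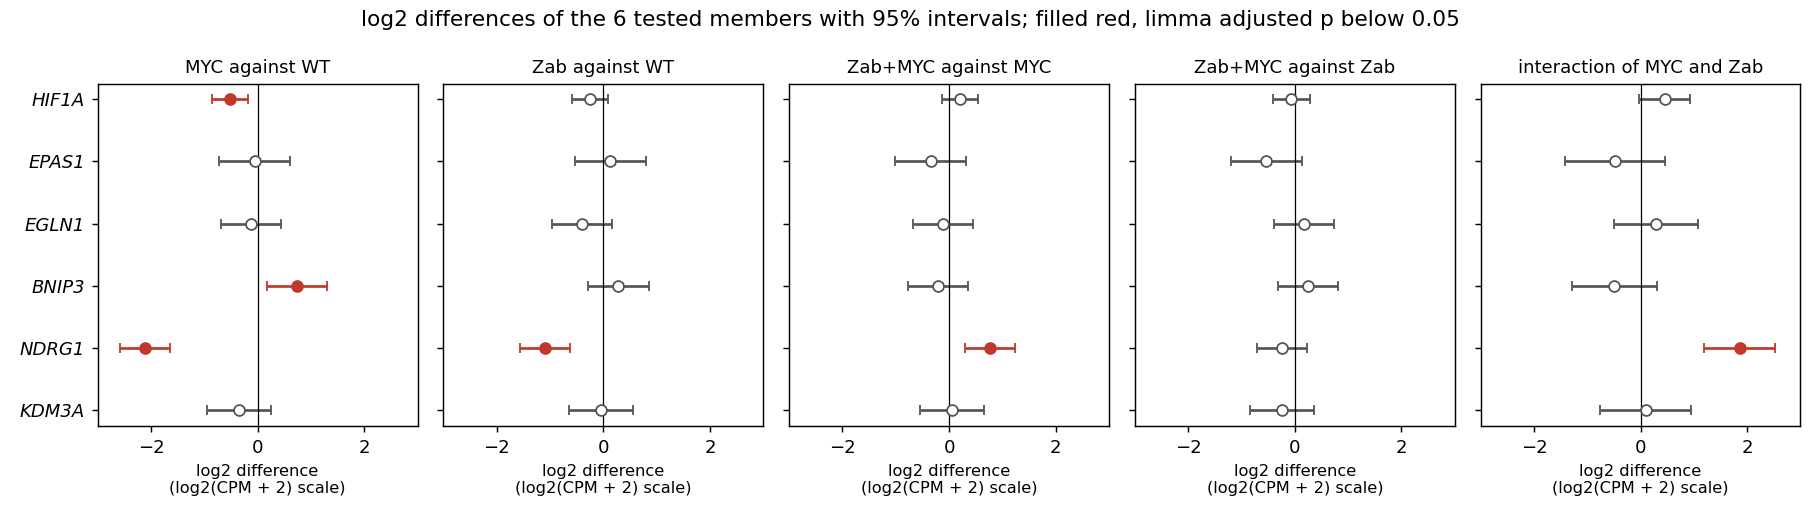
The log2 difference (log2(CPM + 2) scale) of the 6 tested members on the x axis in the 4 comparisons and the interaction, with 95% intervals. Filled red points are limma adjusted p below 0.05, and NDRG1 is at -2.11 for MYC against WT, -1.09 for Zab against WT, 0.77 for Zab+MYC against MYC and 1.86 in the interaction.

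ANKRD37, a small ankyrin-repeat protein that is a recurrent HIF target, lies at chromosome 4 from 186317995 to 186321391 and did not pass the filter. ANKRD37 had 5.35 and 6.38 CPM in Zab+MYC, 10.7 and 6.74 CPM in MYC, 8.61 and 4.90 CPM in Zab, and 15.1 and 10.1 CPM in WT. The Zab+MYC and the Zab libraries lay below both WT libraries, and the MYC libraries overlapped WT. The Zab to WT tag ratio was 0.533, with a counting interval of 0.225 to 1.18, which includes no difference. With a filter of 5 CPM in 2 libraries it entered the fit and was called in no comparison. Its span overlaps that of UFSP2 in the hg19 table, where exons were not compared, and those of UFSP2 and LRP2BP in GRCh38. UFSP2 had 12.2 and 11.3 CPM in Zab+MYC, 17.3 and 14.3 CPM in MYC, 16.5 and 10.4 CPM in Zab, and 25.2 and 24.4 CPM in WT. WT was the highest group for both ANKRD37 and UFSP2, and the part of UFSP2 reads in the ANKRD37 values was not tested.

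KDM3A, a histone H3 lysine 9 demethylase that itself uses oxygen and 2-oxoglutarate, lies at chromosome 2 from 86668494 to 86719839. KDM3A had 16.1 and 24.1 CPM in Zab+MYC, 17.3 and 20.6 CPM in MYC, 23.0 and 24.5 CPM in Zab, and 24.6 and 24.4 CPM in WT. The MYC libraries were below both WT libraries, and the Zab+MYC libraries ran from the lowest value of all to about the WT level. No comparison was called, and the largest log2 difference was -0.34 for MYC against WT, with a 95% interval of -0.95 to 0.26. Its paralog KDM3B stood at a similar level per kilobase, with KDM3A at 0.845 to 1.81 times KDM3B over the 8 libraries.

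The rest of the pathway was read from 4 lists of other genes, with the shares of all tested genes called beside the counts. Those shares are from limma with TMM scaling. On the deposited scale, MYC against WT had 2526 of all 9673 tested genes called higher and 3154 lower. Zab against WT had 251 and 4767, Zab+MYC against MYC 575 and 2947, and Zab+MYC against Zab 2159 and 783. List counts on that scale are to be read against these. Of 15 tested genes that control HIF (partners, hydroxylases, ubiquitin ligase subunits and coactivators), 6 were called higher (27.8% of all tested genes) and 2 lower (30.4%) in MYC against WT, at a list median of log2 0.15 against -0.04 for all tested genes. With library totals the split was 4 higher and 3 lower, with RLE scaling 6 and 1, and on the deposited scale 5 and 3. Over all tested genes, library totals called 2314 higher and 3396 lower, and RLE scaling 2795 and 2847. SIAH2, a ubiquitin ligase that degrades prolyl hydroxylases, had 106 and 95.2 CPM in MYC, against 31.5 and 50.9 CPM in WT, and was 2.44-fold higher (log2 1.29 ± 0.20, limma adjusted p = 8.9e-08). ELOC, a subunit of the VHL ligase, was 1.92-fold higher (log2 0.94 ± 0.11), at 253 and 267 CPM in MYC against 144 and 126 CPM in WT. OS9, a lectin of endoplasmic-reticulum protein degradation that was reported to bind HIF1A and the hydroxylases, was 2.25-fold lower in MYC than WT cells (log2 -1.17 ± 0.11). HIF1AN, the asparagine hydroxylase that blocks HIF coactivator binding, was 1.45-fold lower (limma adjusted p = 0.0402). The HIF1AN call ended in 10 alternatives, among them DESeq2 and RLE scaling. It also ended without either MYC library, WT replicate 1, Zab replicate 1 or either Zab+MYC library. Over the alternatives that ended it, log2 ran from -0.55 to -0.40. ARNT, the beta subunit, had 15.6 and 8.51 CPM in Zab+MYC, 8.87 and 11.5 CPM in MYC, 10.8 and 17.1 CPM in Zab, and 11.4 and 13.8 CPM in WT, and was called in no comparison.

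The same control genes were read for Zab. In Zab against WT, 3 were called higher (13.1% of all tested genes) and none lower (11.3%) by limma, at a list median of log2 0.20, where the count lower at an unadjusted p below 0.05 was also 0, as it was with edgeR and DESeq2. The deposited scale gave 0 higher and 8 lower. CITED2, a competitor of HIF for the coactivators EP300 and CREBBP, was 1.38-fold higher in Zab than WT cells (limma adjusted p = 0.0246), and EP300 was 1.29-fold higher (limma adjusted p = 0.0249). Both turned, on the deposited scale, to values below WT without a call, at log2 -0.07 for CITED2 and -0.17 for EP300. Neither was called with DESeq2. The CITED2 call also ended without Zab replicate 2 or WT replicate 1, and the EP300 call without any 1 of the Zab or WT libraries, with adjusted p values from 0.0657 to 0.743 for CITED2 and from 0.0717 to 0.27 for EP300 over all the alternatives that ended them. Between Zab+MYC and MYC cells, none was called higher (11.8% of all tested genes) and 2 lower (8.14%), at a list median of log2 -0.05, and the deposited scale gave 0 and 9. The limma calls were SIAH2 (1.59-fold lower, limma adjusted p = 0.0109) and EGLN2 (1.35-fold lower, limma adjusted p = 0.019). The count higher was 1 at an unadjusted p below 0.05 and 0 with edgeR and DESeq2. Both calls ended with DESeq2 and without Zab+MYC replicate 1 or MYC replicate 1. The SIAH2 call also ended with no filter and without Zab+MYC replicate 2. Over the alternatives that ended them, log2 was -0.76 to -0.63 for SIAH2 and -0.48 to -0.41 for EGLN2. In Zab+MYC against Zab, 1 was called higher (14.3% of all tested genes) and 2 lower (12.5%), at a list median of log2 0.07. ELOC was 1.32-fold higher, OS9 1.74-fold lower and EP300 1.34-fold lower. The ELOC call ended with DESeq2 (adjusted p = 0.118). The deposited scale gave 2 higher and 1 lower. The EP300 call ended on the deposited scale, with DESeq2, and without Zab+MYC replicate 1 or Zab replicate 1. Its log2 ran from -0.44 to -0.27 over the alternatives that ended it.

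Among 38 tested HIF targets that are neither members nor glycolytic, 9 were called higher (27.8% of all tested genes) and 18 lower (30.4%) in MYC against WT, at a list median of log2 -0.66 against -0.04 for all tested genes. The genes with the largest differences act in separate processes. TFRC, the transferrin receptor of iron uptake, had 143 and 161 CPM in MYC, against 21.5 and 24.4 CPM in WT, and was 6.18-fold higher (log2 2.63 ± 0.20, limma adjusted p = 1.4e-19). FAM162A, a mitochondrial protein induced by hypoxia, had 276 and 281 CPM in MYC, against 68.8 and 77.9 CPM in WT, and was 3.73-fold higher (log2 1.90 ± 0.13). CCNG2, an atypical cyclin linked to cell cycle arrest, had 1.87 and 0.793 CPM in MYC, against 36.0 and 40.8 CPM in WT. The MYC value rests on 3 tags, and the tag ratio was 0.0333 with a counting interval of 0.00671 to 0.102 (limma adjusted p = 2.8e-11). PNRC1, a nuclear receptor coactivator, was 8.75-fold lower in MYC than WT cells (log2 -3.13 ± 0.34) on 10.5 tags in MYC and 90 in WT. Its tag ratio was 0.0869, with a counting interval of 0.0411 to 0.165.

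For the same 38 targets, Zab against WT gave 4 called higher (13.1% of all tested genes) and 12 lower (11.3%), at a median of log2 -0.31 against -0.0003 for all tested genes. The deposited scale gave 2 and 26. BHLHE41, a circadian and hypoxia-linked repressor, had 10.04 and 7.34 CPM in Zab, against 87.1 and 76.8 CPM in WT, and was 7.90-fold lower (log2 -2.98 ± 0.32, limma adjusted p = 3.3e-12). CCNG2 was 5.52-fold lower (log2 -2.46 ± 0.43) on 8 tags in Zab and 67 in WT. Its tag ratio was 0.137, with a counting interval of 0.0568 to 0.286. HMOX1, the stress-induced haem oxygenase, had 109 and 98.5 CPM in Zab, against 34.1 and 50.9 CPM in WT, and was 2.42-fold higher (log2 1.27 ± 0.22). VLDLR, a lipoprotein receptor, was 2.38-fold higher (limma adjusted p = 0.0137). That call ended on the deposited scale, with no filter, and without either Zab library or WT replicate 2. Its log2 was 0.79 to 1.29 over the alternatives that ended it.

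In Zab+MYC against MYC the same list gave 5 called higher (11.8% of all tested genes) and 6 lower (8.14%), at a median of log2 0.05 against -0.0017 for all tested genes, and 5 and 10 on the deposited scale. CCNG2 was called higher (limma adjusted p = 0.0309) on 10 tags in Zab+MYC and 3 in MYC, a tag ratio of 4.48 with a counting interval of 1.15 to 25.4. That call ended in 9 alternatives, among them edgeR, and without either Zab+MYC, MYC or WT library, with log2 of 0.77 to 2.05. CA12, a membrane carbonic anhydrase and paralog of CA9, had 56.0 and 59.5 CPM in Zab+MYC, against 136 and 123 CPM in MYC, and was 2.20-fold lower (log2 -1.14 ± 0.18). FAM162A was 1.69-fold lower (log2 -0.76 ± 0.13).

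Against Zab, Zab+MYC had 6 of the 38 targets called higher (14.3% of all tested genes) and 10 lower (12.5%), at a median of log2 -0.08 against -0.0059 for all tested genes, and 7 and 7 on the deposited scale. TFRC had 103 and 93.6 CPM in Zab+MYC, against 25.8 and 25.7 CPM in Zab, and was 3.61-fold higher (log2 1.85 ± 0.20). CA12 had 56.0 and 59.5 CPM in Zab+MYC, against 26.5 and 21.4 CPM in Zab, and was 2.31-fold higher (log2 1.21 ± 0.18). HMOX1 was 2.98-fold lower (log2 -1.57 ± 0.22). STBD1, a glycogen-binding protein, was 2.20-fold lower (limma adjusted p = 0.0123). That call ended with DESeq2, with no filter, and without Zab+MYC replicate 2 or Zab replicate 1. Its log2 was -1.25 to -0.66 over the alternatives that ended it. Zab+MYC was thus between MYC and Zab for CA12 and TFRC, whereas HMOX1 had 28.2 and 39.7 CPM in Zab+MYC and 28.5 and 36.5 CPM in MYC, which overlap.

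**Figure D3:**
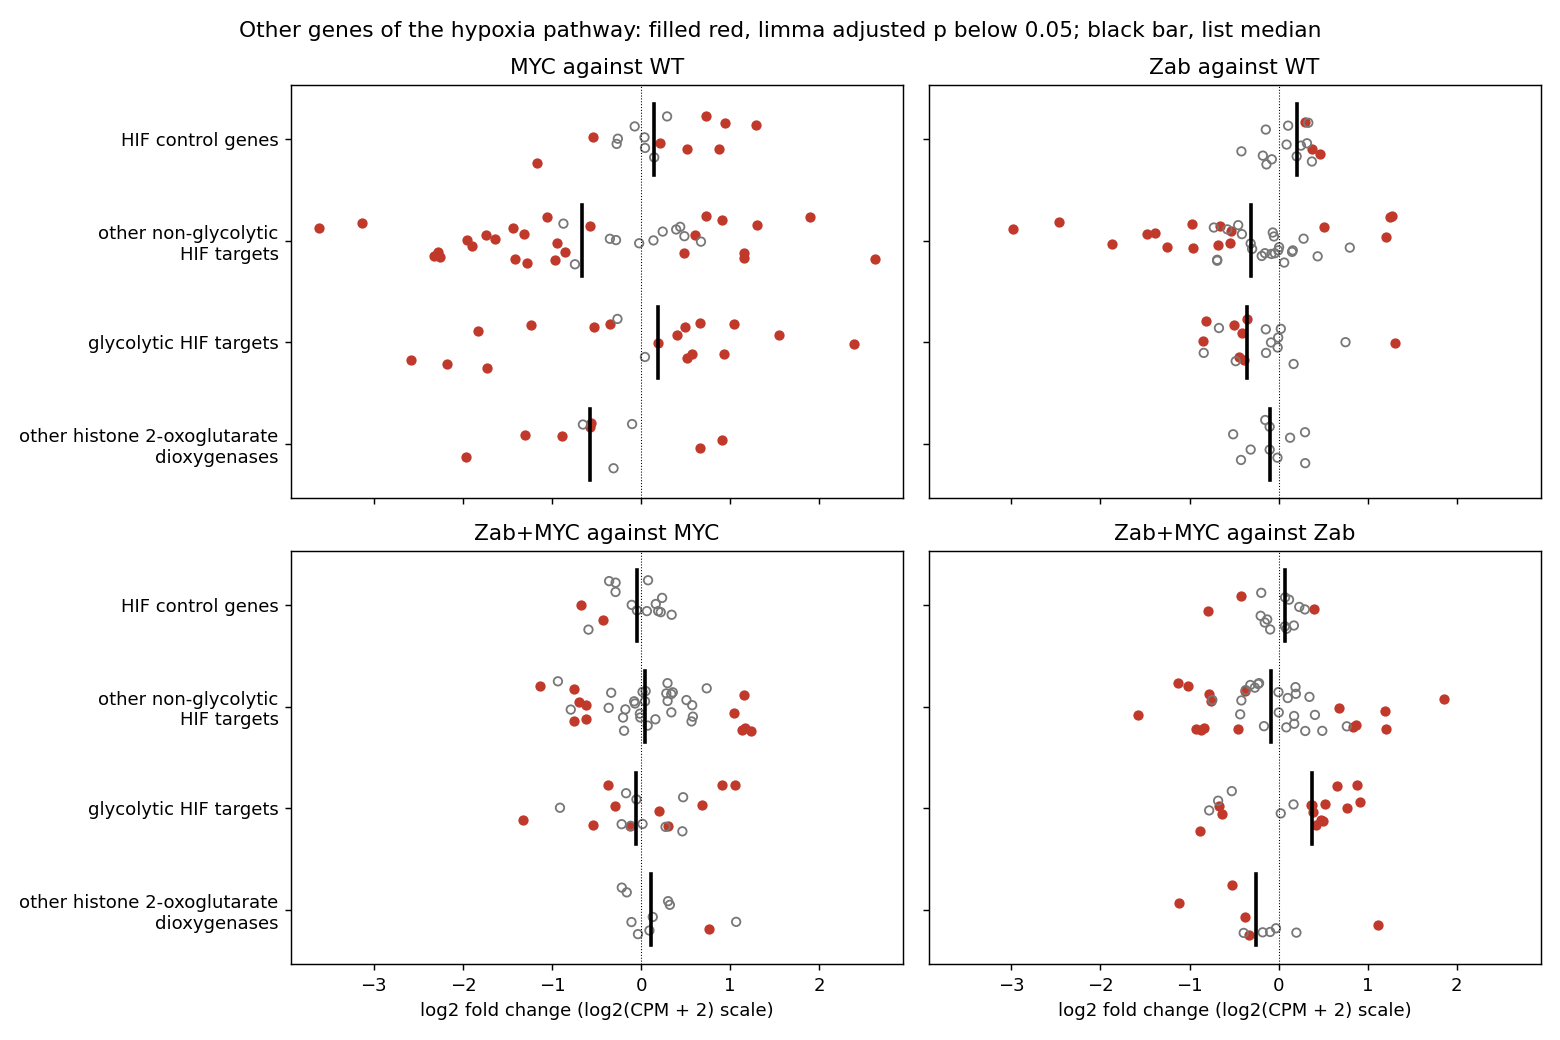
The log2 fold change (log2(CPM + 2) scale) on the x axis of each tested gene in 4 lists of the hypoxia pathway, in 4 comparisons. Filled red points have a limma adjusted p below 0.05 and black bars are list medians, which for other non-glycolytic HIF targets lie at -0.66 for MYC against WT and -0.31 for Zab against WT.

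Of 19 tested glycolytic HIF targets, 10 were called higher (27.8% of all tested genes) and 7 lower (30.4%) in MYC against WT, at a median of log2 0.19 against -0.04 for all tested genes. HK2, the inducible hexokinase, had 40.6 and 32.5 CPM in MYC, against 4.42 and 6.36 CPM in WT, and was 5.24-fold higher (log2 2.39 ± 0.35, limma adjusted p = 1.2e-08). PFKFB3, which makes the activator of phosphofructokinase, was 2.93-fold higher (log2 1.55 ± 0.36). SLC2A3, a high-affinity glucose transporter, had 6.54 and 3.97 CPM in MYC, against 41.6 and 39.7 CPM in WT, and was 5.98-fold lower (log2 -2.58 ± 0.34). ENO2, the neuronal enolase, was 4.54-fold lower (log2 -2.18 ± 0.22).

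In Zab against WT, 1 of the glycolytic genes was called higher (13.1% of all tested genes) and 7 lower (11.3%), at a median of log2 -0.35, and the deposited scale gave 1 and 17. HK2 was 2.48-fold higher (limma adjusted p = 0.00267), a call that ended without Zab replicate 1 and with DESeq2, at log2 1.08 to 1.53. PGAM1, a phosphoglycerate mutase, was 1.81-fold lower (log2 -0.85 ± 0.18), and ENO2 was 1.77-fold lower (log2 -0.82 ± 0.22), the ENO2 call ending with DESeq2 (adjusted p = 0.0616). In Zab+MYC against MYC, 5 were called higher (11.8% of all tested genes) and 5 lower (8.14%), at a median of log2 -0.05. The counts were 5 higher and 9 lower with RLE scaling, and 1 and 11 on the deposited scale. RLE scaling called 1068 of all tested genes higher and 969 lower there. SLC2A1, the common glucose transporter, had 105 and 77.3 CPM in Zab+MYC, against 47.6 and 46.4 CPM in MYC, and was 1.88-fold higher (limma adjusted p = 0.000454). That call ended without Zab+MYC replicate 1 (log2 0.66, limma adjusted p = 0.0843). SLC2A3 was 2.08-fold higher and PFKFB3 2.50-fold lower, and both calls ended without Zab+MYC replicate 2 or MYC replicate 2. The SLC2A3 call also ended on the deposited scale and with no filter, and the PFKFB3 call with the correction for transcript length. Over the alternatives that ended them, log2 was 0.78 to 1.04 for SLC2A3 and -1.16 to -0.93 for PFKFB3. PFKP, the platelet phosphofructokinase, was 1.46-fold lower (log2 -0.54 ± 0.11). In Zab+MYC against Zab, 11 were called higher (14.3% of all tested genes) and 3 lower (12.5%), at a median of log2 0.37, and 12 and 1 on the deposited scale. LDHA, which makes lactate, had 1950 and 1894 CPM in Zab+MYC, against 1017 and 1072 CPM in Zab, and was 1.84-fold higher (log2 0.88 ± 0.044). PGAM1 was 1.89-fold higher (log2 0.92 ± 0.18). ENO2 was 1.59-fold lower and PFKFB4, a relative of PFKFB3, was 1.85-fold lower, and both calls ended without Zab+MYC replicate 2 or Zab replicate 1, at log2 -0.69 to -0.47 and -0.96 to -0.57. The ENO2 call ended also without Zab replicate 2, and the PFKFB4 call without either WT library. Both calls ended as well with DESeq2, with no filter and on the deposited scale. The PFKFB4 call ended in 11 alternatives, among them edgeR and the 4 libraries compared alone.

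KDM3A belongs to the histone demethylases that use 2-oxoglutarate and oxygen. Some of that family were counted above, among the HIF targets and the control genes, and 10 others were tested as the last list. In MYC against WT, 2 of them were called higher (27.8% of all tested genes) and 5 lower (30.4%), at a median of log2 -0.57 against -0.04 for all tested genes. KDM2B, a lysine 36 demethylase that recruits Polycomb, had 64.0 and 65.4 CPM in MYC, against 34.7 and 32.3 CPM in WT, and was 1.88-fold higher (log2 0.91 ± 0.23, limma adjusted p = 0.000387). KDM2A, its paralog, was 1.58-fold higher (log2 0.66 ± 0.17). KDM4A, a demethylase of lysines 9 and 36, was 2.46-fold lower (log2 -1.30 ± 0.20). PHF2 was 3.92-fold lower (log2 -1.97 ± 0.45) on 5 tags in MYC and 25.5 in WT. In Zab against WT none was called by limma (24.4% of all tested genes), at a median of log2 -0.10, and the counts at an unadjusted p below 0.05 and with edgeR and DESeq2 were also 0. The deposited scale gave 5 lower. With Zab+MYC set against MYC, where 11.8% of all tested genes were called higher and 8.14% lower and the list median was log2 0.11, 1 was called higher (KDM4A, 1.69-fold, limma adjusted p = 0.00369) and none lower by limma, at an unadjusted p below 0.05, or with edgeR or DESeq2. On the deposited scale none was called higher and 1 lower. In Zab+MYC against Zab, 1 was called higher (14.3% of all tested genes) and 4 lower (12.5%), at a median of log2 -0.26, and 1 and 1 on the deposited scale. KDM2B was 2.17-fold higher (log2 1.12 ± 0.23), KDM6B, a lysine 27 demethylase, was 2.18-fold lower (log2 -1.12 ± 0.23), and KDM4A was 1.44-fold lower (limma adjusted p = 0.0434). Both KDM4A calls with Zab+MYC ended with DESeq2 and on the deposited scale. That against MYC also ended without Zab+MYC replicate 1 or MYC replicate 1, with log2 of 0.45 to 0.76 over the alternatives that ended it. That against Zab ended in 9 alternatives, among them without any 1 of the 4 libraries compared, at log2 -0.64 to -0.37.

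For the interaction, 14.6% of all tested genes were called higher and 13.3% lower, at a median of log2 0.02. Of the 38 other targets 13 were called higher and 4 lower (median 0.26), and of the 19 glycolytic genes 8 and 4 (median 0.33). The medians were -0.15 for the control genes, which was 0.06 on the deposited scale, and 0.22 for the demethylases. Among the control genes 0 were called higher and 3 lower by limma, where the count higher was 1 at an unadjusted p below 0.05 and 0 with edgeR and with DESeq2. Of the demethylases 1 was called higher and 0 lower, and the count lower was also 0 at an unadjusted p below 0.05, with edgeR and with DESeq2. The deposited scale gave 11 and 2 for the glycolytic genes and 1 and 2 for the control genes, and library totals gave 10 and 3 and 1 and 3. The demethylase count higher was 3 on the deposited scale, 2 with library totals and 0 with DESeq2. DESeq2 called 4 glycolytic genes higher and 0 lower, and 9 of the other targets higher and 2 lower. Over all tested genes, DESeq2 called 500 higher and 641 lower in the interaction. Library totals called 1668 and 1040, and the deposited scale 2061 and 829.

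The genes whose log2(CPM + 2) followed a member most closely over the 8 libraries were sought among genes with a range of group means of at least 1 on the log2 scale. These correlations describe 4 pairs of libraries that share groups and carry no test. NDRG1 was followed by SCARA3 (r = 0.997), SEMA3C (r = 0.991) and ACSF2 (r = 0.989). SCARA3 averaged 37.3 CPM in Zab+MYC, 15.6 CPM in MYC, 50.5 CPM in Zab and 185 CPM in WT, the same order of groups as NDRG1 with a wider span. BNIP3 was followed by WASF3 (r = 0.984), CDC42EP2 (r = 0.975) and NOL8 (r = 0.969). NOL8 averaged 67.8 CPM in Zab+MYC, 110 CPM in MYC, 52.8 CPM in Zab and 32.3 CPM in WT. EPAS1 was followed by DUSP1 (r = 0.906), ELK1 (r = 0.904) and CHIC1 (r = 0.901), less closely than the others. DUSP1 averaged 3.36 CPM in Zab+MYC, 7.47 CPM in MYC, 12.1 CPM in Zab and 13.8 CPM in WT.

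**Figure D4:**
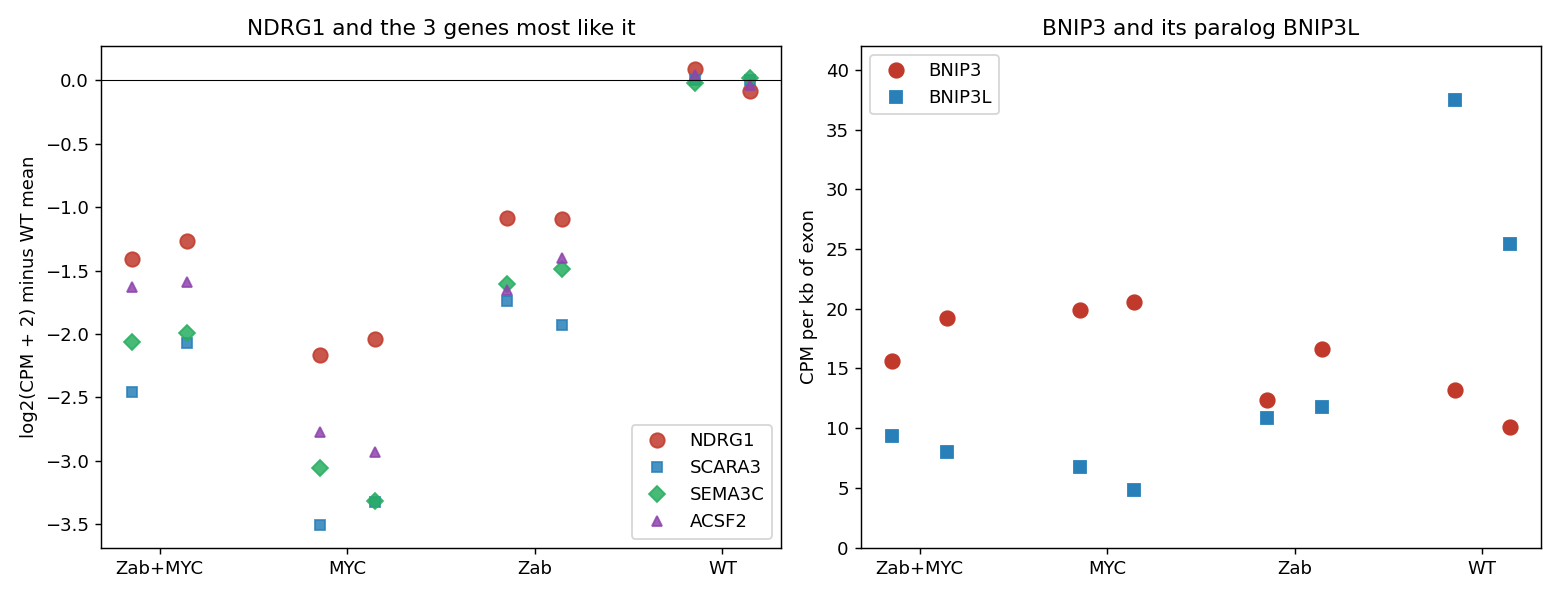
Left, log2(CPM + 2) minus the WT mean on the y axis for NDRG1 and the 3 genes most like it in the 8 libraries, by genotype on the x axis. Right, CPM per kb of exon for BNIP3 and BNIP3L in the same libraries, where BNIP3L stands at 37.5 and 25.4 in WT and at 4.83 to 11.7 in the other libraries.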

How the data were processed

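Total RNA of 8 U2OS libraries in 4 genotypes was measured by RNA-seq. Per the labels' protocols, Trizol was used for extraction and an Abclonal kit for the libraries. Per the submitters' processing notes, the tools were HOMER 4.11.1, Trim Galore 0.6.6 and STAR, with builds hg19 and dm6 listed without a role. Per the file headers, HOMER took raw tags over exons of RefSeq coding genes (hg19), with a single transcript kept for each symbol, so coordinates of members are hg19. The authors deposited a signal per gene that is tags times 1 factor per library. In every library 100% of values were whole multiples of 1 step within 0.1 step, and tags were recovered from them taking 1 tag as 2 steps. This is an assumption that leaves ratios of tags unchanged. It sets tag numbers and depth, and with them the counting intervals, the chi-square between libraries, the filter, and the edgeR and DESeq2 results. Taken as 1 step per tag, exon tags would exceed the tag total of the header in every library, and at 2 steps they made up 60.6% to 76.1% of it. The labels and headers do not say how the factor was set.

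The 9673 genes that passed filterByExpr were tested with limma (mean-variance trend) on log2(CPM + 2) with TMM factors, 1 mean per group, 4 residual degrees of freedom, 8 libraries, two-sided, with Benjamini-Hochberg adjusted p below 0.05 over all tested genes. The low adjusted p values rest on a spread pooled over all genes (67.2 prior degrees of freedom). The recovered tags, rounded to whole counts, were also tested with edgeR's quasi-likelihood test, which called 5919 genes in MYC against WT, 2319 for Zab against WT, 2348 for Zab+MYC against MYC, 2514 for Zab+MYC against Zab and 2728 for the interaction, and with DESeq2. Other alternatives were RLE scaling, library totals, the deposited scale, no filter, 5 CPM in 2 libraries, pseudocounts of 1 and 5 CPM, the 4 libraries compared alone, a replicate block and each library left out. Pooled tag ratios and a correction for transcript length were chosen after seeing the data. Counting intervals are exact at 95% and cover counting error only. A count of 0 is given as a limit of 3 counts over the group. Statistical steps were tested on simulated data. The members and lists were chosen with earlier results of these data known. The names printed are the members, MYC and ADAR, the 2 called genes with the largest difference in each direction per list and comparison, and the 3 genes most correlated with each of the 3 members of largest range. One gene that this rule selects is not reported here. Paralogs and overlapping genes were added after their values were seen. Promoters are RefSeq GRCh38.p14. Fits were run in R 4.3.3 (DESeq2 1.42.0, edgeR 4.0.16, limma 3.58.1), and the rest in Python 3.11.15 with matplotlib 3.10.9, pandas 2.3.3, numpy 2.4.6 and scipy 1.17.1.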

Additional observations from a re-analysis of the deposited data

Results flagged for a closer look

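The NDRG1 difference between the Zab effect with MYC and the Zab effect without MYC was log2 1.86 ± 0.33 SE (limma adjusted p = 7.49e-06). It was singled out because the test of that difference passed the threshold, as it did for 27.9% of all tested genes. The same difference was log2 1.96 for BNIP3L (limma adjusted p = 3.0e-06) and 1.08 for NDRG3 (limma adjusted p = 7.0e-05). It was 0.11 for NDRG4, not called, and -0.76 for EGLN2 (limma adjusted p = 0.0018). NDRG1 stood at 30.7 and 34.0 CPM in Zab+MYC, against 17.3 and 19.0 CPM in MYC, and at 38.7 and 38.6 CPM in Zab, against 90.2 and 79.5 CPM in WT. Both Zab+MYC libraries were above both MYC libraries, and both Zab libraries were below both WT libraries. MYC was lower in Zab+MYC than in MYC cells and ADAR lower in Zab+MYC than in Zab cells. The parts of these levels and of the genotypes in the difference cannot be told apart. No group had enough libraries for a test of single outlying libraries.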

How the results depend on the processing

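The calls of NDRG1 for MYC against WT, in Zab against WT and in the interaction held in every alternative run, and no called value of a member changed sign. Among the named list genes, CITED2 and EP300 in Zab against WT changed sign on the deposited scale (log2 -0.07 and -0.17). With DESeq2 the members called were 1 for MYC against WT and 0 for Zab+MYC against MYC, against 3 and 1 with limma. Of all 9673 tested genes, DESeq2 called 3997 and 709 in these comparisons, and limma 5633 and 1933. On the deposited scale the members called were 3 for Zab against WT, 0 for Zab+MYC against MYC and 2 in the interaction. HIF1A was the added call in the interaction (log2 0.67, limma adjusted p = 0.027). A filter of 5 CPM in 2 libraries gave 1 for Zab+MYC against Zab, which is EGLN3, where 2615 of 11488 genes were called. With no filter EGLN3 was not called in that comparison (limma adjusted p = 0.081). Leaving out each library gave 1 to 3 members called in MYC against WT and 0 to 1 for Zab+MYC against MYC, and the lone library left in a group was assumed to vary like the others.

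Over all genes, DESeq2 called 886 for Zab against WT, 709 for Zab+MYC against MYC, 925 for Zab+MYC against Zab and 1141 for the interaction, where limma called 2363, 1933, 2592 and 2695. The deposited scale called 5018 for Zab against WT and 3522 for Zab+MYC against MYC, of which 251 and 575 were higher. It also moved the split to 2159 higher and 783 lower in Zab+MYC against Zab and to 2061 and 829 for the interaction. Library totals gave 1335 higher and 570 lower in Zab+MYC against MYC, where TMM gave 1146 and 787, and moved the median gene by log2 -0.12 for MYC against WT. Leaving out each library gave 1136 to 2213 genes in Zab+MYC against MYC, the lowest without Zab+MYC replicate 2, and 1712 to 2648 for Zab+MYC against Zab, the lowest without that same library. Same-numbered libraries did not deviate together (correlations from -0.0226 to 0.0143). Libraries of a group differed by little more than sampling noise, which would hide a shared deviation, so this check cannot decide whether the numbers pair them. A replicate block moved the genes called to 5650, 2434, 2010, 2657 and 2756 over MYC against WT, Zab against WT, Zab+MYC against MYC, Zab+MYC against Zab and the interaction, and left the number of members called at 3, 1, 1, 0 and 1. Among 50 calls of named genes of the pathway lists, 31 held in every alternative that gave a value and 19 ended in 1 or more. Depth limits ADM, CA9, EGLN3 and ANKRD37, which have 6, 4.5, 44.5 and 61.5 tags over all 8 libraries.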

Other observations

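CA12, the membrane carbonic anhydrase related to CA9, was well detected where CA9 was near 0. It had 56.0 and 59.5 CPM in Zab+MYC, 136 and 123 CPM in MYC, 26.5 and 21.4 CPM in Zab, and 88.3 and 96.4 CPM in WT. It was 3.65-fold lower in Zab than WT cells (log2 -1.87 ± 0.18 SE, limma adjusted p = 2.0e-13), with no overlap between the groups. NDRG4, a relative of NDRG1, had 2.92 and 0 CPM in Zab+MYC, 1.40 and 2.38 CPM in MYC, 14.3 and 9.79 CPM in Zab, and 12.6 and 21.2 CPM in WT. Both genes were named after their values were seen.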
